A study of Homo sapiens with 15 samples.

Results

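The 10 genes described here are regulators with known roles in the ventricular fate of heart muscle: the Iroquois factors IRX1, IRX2, IRX3, IRX4 and IRX5, the HEY factors HEY1 and HEY2, the HAND factors HAND1 and HAND2, and LBH. They were taken by symbol for these roles, with earlier results of these data known, and were 10 of 58780 gene rows in the deposited count table. All 10 passed the filter on low counts, which kept 24659 genes for testing. RNA was measured in cardiomyocytes made from H7, an established line of human embryonic stem cells, of wild-type genotype per the labels. All 5 groups shared the same differentiation, in which 1 nM TTNPB, a synthetic retinoid, and 100 nM retinoic acid directed the cells to an atrial fate, and spheroids were dissociated on day 17. The groups, of 3 libraries each, were cells with scramble siRNA, with 1 of 2 siRNAs that target ATRNL1 (named siRNA-1 and siRNA-2), with a control lentivirus, or with lentiviral particles that carry the short ATRNL1 isoform. ATRNL1 encodes attractin-like 1, a membrane protein, and the series asked what its loss or gain does to atrial cardiomyocytes. The lentiviral cells were selected with puromycin, and all cells came from 1 cell line. The time between treatment and harvest is not given in the sources used here, and neither is the promoter of the vector.

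Iroquois factors are homeodomain proteins encoded in a pair of gene clusters. In the mouse heart, IRX4 marks ventricular muscle and holds down atrial genes there, while IRX3 and IRX5 act in the conduction system and in the graded expression of potassium channels across the ventricular wall. HEY1 and HEY2 are repressors of the bHLH class that NOTCH signalling switches on through RBPJ. HEY1 is found mainly in atrial and HEY2 in ventricular precursors. HAND1 and HAND2 are bHLH activators that pair with E proteins at E-box sequences and are needed for growth of the left and right ventricle. LBH is a small transcriptional cofactor expressed in limb buds and in the developing heart.

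On GRCh38, IRX4 (ENSG00000113430, chromosome 5, 1877413 to 1887236, minus strand), IRX2 (ENSG00000170561, 2745845 to 2751662, minus strand) and IRX1 (ENSG00000170549, 3596054 to 3601403, plus strand) form the cluster on chromosome 5. IRX3 (ENSG00000177508, 54283304 to 54286763, minus strand) and IRX5 (ENSG00000176842, 54930862 to 54934485, plus strand) belong to the cluster on chromosome 16. HAND1 (ENSG00000113196, 154474972 to 154478264, minus strand) lies far along chromosome 5, HAND2 (ENSG00000164107, 173524969 to 173530229, minus strand) on chromosome 4, HEY2 (ENSG00000135547, 125747664 to 125761269, plus strand) on chromosome 6 and LBH (ENSG00000213626, 30231369 to 30323730, plus strand) on chromosome 2. All 10 genes are protein-coding.

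RefSeq promoter windows on GRCh38.p14, each running from 250 bases before to 50 bases after an annotated start, were matched by symbol for 7 of the 10 genes. Those of LBH (chr2:30231284-30231583, plus strand), IRX2 (chr5:2751628-2751927, minus strand), HEY2 (chr6:125749382-125749681, plus strand) and HAND2 (chr4:173530180-173530479, minus strand) are shown because these genes rose clearly with the ATRNL1 lentivirus. Capitals mark matches on either strand to the RBPJ core TGGGAA, the E-box CANNTG, the HEY-type sequences CACGTG and CACGCG, and the Iroquois palindrome ACANNTGT.
LBH promoter: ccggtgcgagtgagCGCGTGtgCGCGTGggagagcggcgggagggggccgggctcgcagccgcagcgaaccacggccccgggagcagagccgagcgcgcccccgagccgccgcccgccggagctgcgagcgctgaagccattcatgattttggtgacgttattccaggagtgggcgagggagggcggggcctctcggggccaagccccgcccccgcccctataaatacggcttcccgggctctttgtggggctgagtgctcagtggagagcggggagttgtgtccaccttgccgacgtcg
IRX2 promoter: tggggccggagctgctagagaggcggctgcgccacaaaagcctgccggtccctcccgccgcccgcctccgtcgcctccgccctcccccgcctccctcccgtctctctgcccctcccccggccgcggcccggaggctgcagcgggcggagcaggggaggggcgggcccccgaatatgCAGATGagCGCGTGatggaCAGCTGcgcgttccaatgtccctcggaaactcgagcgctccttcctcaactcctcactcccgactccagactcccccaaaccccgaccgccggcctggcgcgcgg
HEY2 promoter: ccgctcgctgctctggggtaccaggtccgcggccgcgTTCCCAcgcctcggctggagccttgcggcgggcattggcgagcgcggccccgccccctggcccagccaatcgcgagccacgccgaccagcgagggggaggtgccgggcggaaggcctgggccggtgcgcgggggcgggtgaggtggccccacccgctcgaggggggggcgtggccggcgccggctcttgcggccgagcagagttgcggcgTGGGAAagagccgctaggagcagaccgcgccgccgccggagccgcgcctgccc
HAND2 promoter: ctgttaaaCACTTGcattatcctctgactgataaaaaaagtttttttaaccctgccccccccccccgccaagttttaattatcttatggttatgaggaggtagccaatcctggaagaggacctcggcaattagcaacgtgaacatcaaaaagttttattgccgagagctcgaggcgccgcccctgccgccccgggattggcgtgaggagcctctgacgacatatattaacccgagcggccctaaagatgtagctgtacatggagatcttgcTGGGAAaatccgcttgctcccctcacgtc
The LBH window held 2 matches to CACGCG, both read here from the other strand. The IRX2 window held 1 match to CACGCG between 2 E-boxes. The HEY2 window held 2 matches to TGGGAA, 1 on each strand, and lies inside the longer gene model of the counting annotation. The HAND2 window held 1 E-box and 1 match to TGGGAA. Over all 35116 windows of the table, 24.03% held TGGGAA, 68.68% CANNTG, 7.256% CACGTG, 11.43% CACGCG and 5.619% ACANNTGT. CACGTG is itself an E-box, and ACANNTGT contains one. Among the windows not shown, IRX1 held 1 CACGTG, HAND1 held 1 TGGGAA, and none of the 7 genes held ACANNTGT. These matches describe letters and not bound sites.

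Libraries held 37078568 to 108663135 counts. The targeted gene followed the labels: ATRNL1 stood at 13.8 to 16.9 CPM (TMM-scaled library-size-corrected counts) in scramble libraries, 8.26 to 10.2 with siRNA-1, 4.61 to 5.41 with siRNA-2, 27.1 to 29.2 with the control lentivirus and 636 to 927 with the ATRNL1 lentivirus, whose reads count vector and cell gene together. All 9 cardiomyocyte markers exceeded 1 CPM in every library. MYL7, counted here among the cardiomyocyte markers, stood at 5400 to 6829 TPM (a length-corrected unit, in group means). Of 7 atrial markers, 5 were at 1 CPM or more in every library. Among these, NR2F2 stood at 30.02 to 39.8 TPM, MYL4 at 1754 to 3440 TPM and NPPA at 146 to 355 TPM. NR2F1 stayed below 1 CPM and SLN below 0.3 CPM in every library. Of 4 ventricular markers, 3 were at 1 CPM or more in every library. MYL2 (3370 to 11137 TPM) and MYH7 (2822 to 7179 TPM) were abundant, while RPL3L had group means of 0.03 to 0.25 CPM. The labelled atrial identity was therefore mixed at the level of markers. In each group 1 library lay between the other pair in 73.3% to 99.9% of the genes in which that pair differed. This library was picked for the highest such share, and 4 groups have a title that joins the numbers of the other pair. With siRNA-2 the libraries not picked lay between the others in 67.3% and 57.5% of such genes. With the ATRNL1 lentivirus they did so in 60.9% and 54.9%, so in both groups the trait was not particular to the picked library. Whether such a library is a mixture was not tested, and results are also given without it where it ends a call. ATRNL1 lentivirus library 2 had the lowest scaling factor of the 15, 0.835, and the ATRNL1 lentivirus group had the widest spread, a median SD of 0.14 on the log2 scale against 0.05 to 0.07 in the other groups.

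Per-length levels (TPM, from summed exon lengths) placed the 10 genes in 3 ranges. HAND2, LBH, HAND1, HEY2 and IRX4 were the abundant ones, IRX3, IRX5 and IRX2 intermediate, and IRX1 and HEY1 scarce. In scramble cells LBH stood at 266 ± 3.74 TPM (SD, n = 3), HAND2 at 196 ± 12.7, HAND1 at 172 ± 9.66, HEY2 at 134 ± 9.37 and IRX4 at 117 ± 10.5. IRX3 followed at 40.0 ± 1.18 TPM, IRX5 at 11.2 ± 0.21, IRX2 at 11.1 ± 1.60, IRX1 at 1.64 ± 0.21 and HEY1 at 1.40 ± 0.45. HEY2, the ventricular paralog, exceeded HEY1 by 49.6 ± 3.86-fold (TPM ratio, n = 3) with the control lentivirus, the lowest ratio of the 5 groups, and by 103 ± 35.7-fold in scramble cells, the highest. HEY1 was counted only 39 to 124 times and IRX1 only 13 to 82 times per library, which limits what could be seen of them.

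**Figure D1:**
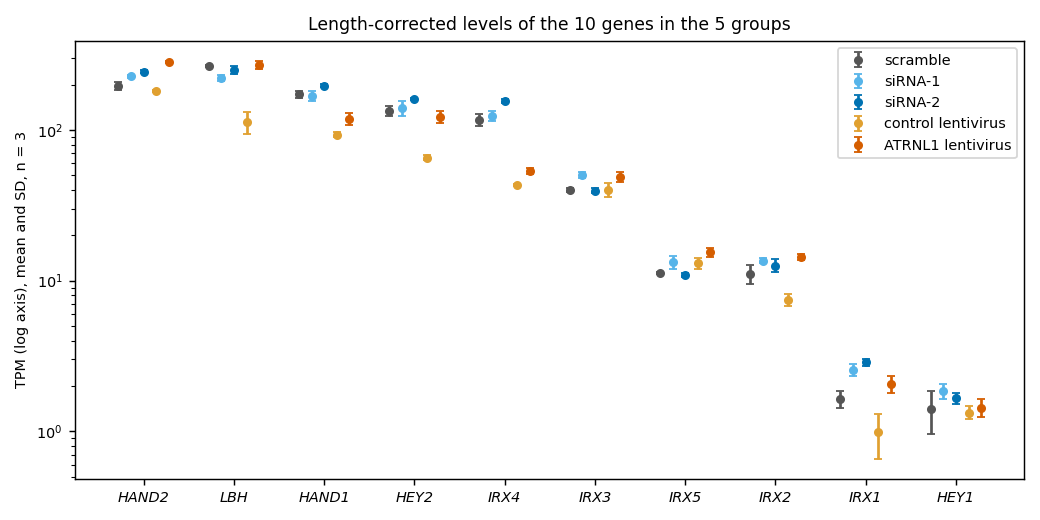
TPM on a log axis for the 10 genes in the 5 groups, as mean and SD of 3 libraries. HEY1 and IRX1 sit near 1 to 3 TPM in all groups, and IRX4 drops from 117 TPM in scramble cells to 42.9 and 53.3 TPM in the lentiviral groups.

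Overexpression of ATRNL1 was compared with the control lentivirus. LBH, IRX1, IRX2, HEY2, HAND2, HAND1, IRX4 and IRX3 rose, so that 8 of the 10 genes were called higher and 0 lower. Of all genes tested, 37.1% were called, 19.1% higher and 18% lower. The libraries of the groups did not overlap for 6 of the 10, against 42.9% of all genes. LBH showed the largest change, from 139 to 319 CPM, and HEY2 went from 46.8 to 84.4 CPM. IRX5 and HEY1 did not pass the test. The median log2 fold change of the 10 genes was 0.44, against 0.00 over all genes tested.

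LBH, the small cofactor, was at 156, 144 and 116 CPM in the control lentivirus libraries and 294, 333 and 330 CPM with ATRNL1. The groups were far apart, with the lowest ATRNL1 library well above the highest control. The log2 fold change was 1.20 (SE 0.08, edgeR quasi-likelihood F-test, Benjamini-Hochberg adjusted p = 2.45e-11), or 2.30-fold. In bulk RNA such a change cannot be told apart from a change in the share of cells that express the gene.

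Among the Iroquois genes, IRX2 and IRX1 had the largest values. IRX2 was at 7.13, 6.12 and 6.49 CPM in the controls and 10.5, 13.7 and 12.4 CPM with ATRNL1 (log2 fold change 0.89, SE 0.11, adjusted p = 3.31e-07). No library of one group reached the other. IRX1, at the edge of detection, went from 0.590, 0.527 and 0.303 CPM to 0.794, 1.01 and 1.08 CPM (0.96, SE 0.23, adjusted p = 0.00162). The groups did not overlap, although the 3 control libraries together held only 102 counts. IRX4, the ventricular marker of the family, was at 30.8, 31.2 and 32.3 CPM against 34.6, 39.9 and 38.3 CPM (0.26, SE 0.07, adjusted p = 0.00653). All 3 ATRNL1 libraries lay above the controls, but by a small margin.

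IRX3 and IRX5, the pair on chromosome 16, had values near that of IRX4. IRX3 was at 32.6, 30.7 and 27.4 CPM in the controls and 30.4, 43.2 and 34.2 CPM with ATRNL1 (0.25, SE 0.09, adjusted p = 0.0414). The groups overlapped, and without ATRNL1 lentivirus library 2 the value was 0.10 and the call ended (adjusted p = 0.345), as it did without control lentivirus library 2 (0.27, adjusted p = 0.0722) or 3 (0.20, adjusted p = 0.168). IRX5 was at 10.3, 9.35 and 9.29 CPM against 9.60, 13.2 and 10.5 CPM, with overlapping groups (0.20, SE 0.10, adjusted p = 0.111). Here too the highest value belonged to ATRNL1 lentivirus library 2, without which the difference was 0.06, and without ATRNL1 lentivirus library 1 IRX5 was called (0.31, adjusted p = 0.0141).

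HEY2 and HEY1 parted. HEY2 was at 46.9, 48.1 and 45.4 CPM in the controls and 70.5, 103 and 80.0 CPM with ATRNL1 (0.85, SE 0.09, adjusted p = 4.68e-08). Every ATRNL1 library exceeded every control, and without ATRNL1 lentivirus library 2 the value was 0.69. HEY1 (ENSG00000164683, GRCh38 chromosome 8, 79764010 to 79767863, minus strand), the atrial paralog, was at 1.05, 1.26 and 1.05 CPM against 1.06, 1.48 and 0.982 CPM. Its groups overlapped, and its interval was too wide to exclude a change of moderate size in either direction (0.06, 95% interval -0.38 to 0.49, adjusted p = 0.869).

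Both HAND genes rose. HAND2, which serves the right ventricle in the mouse, was at 168, 175 and 171 CPM in the controls and 239, 283 and 250 CPM with ATRNL1 (0.59, SE 0.07, adjusted p = 4.43e-07). The groups were clearly apart. HAND1, its left ventricular counterpart, was at 41.3, 40.9 and 44.2 CPM against 43.8, 56.3 and 55.6 CPM (0.30, SE 0.08, adjusted p = 0.00371). Here the lowest ATRNL1 library, 43.8 CPM, lay below the highest control. The TPM ratio of HAND2 to HAND1 was 1.97 ± 0.10 in the controls and 2.41 ± 0.23 with ATRNL1. HAND2 shares 867 exonic bases with HAND2-AS1 on the opposite strand, and whether counting used strand is not stated in the labels, so that reads from the overlap cannot be told apart. HAND2-AS1 itself rose from 371 ± 2.25 to 548 ± 29.2 CPM (0.56, SE 0.06, adjusted p = 7.57e-08).

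Without the in-between library of each group, 5 of the 10 genes remained called in this comparison, where 21.1% of all genes were called. These were LBH, IRX1, IRX2, HEY2 and HAND2, while IRX4 (0.24, adjusted p = 0.153), HAND1 (0.23, adjusted p = 0.200) and IRX3 (0.29, adjusted p = 0.159) lost the call. Leaving out ATRNL1 lentivirus library 2 left 7 genes called, where 36.8% of all genes were.

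**Figure D2:**
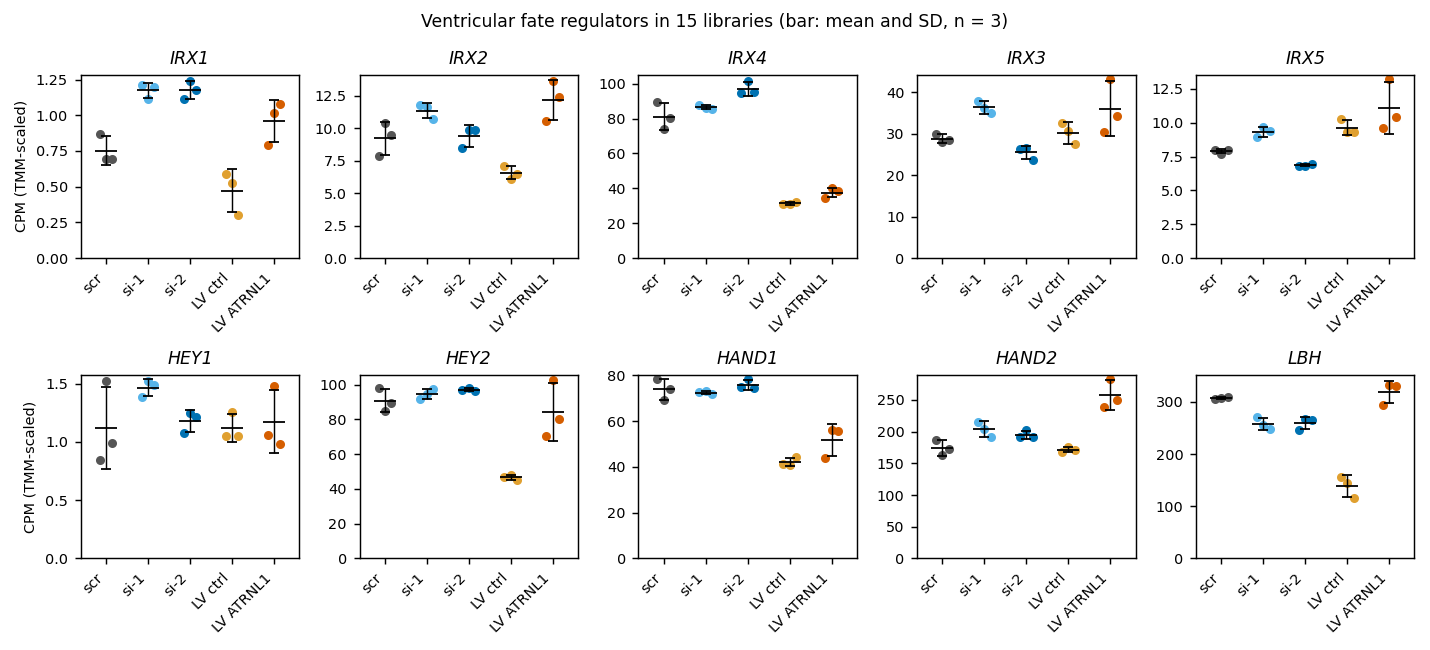
CPM (TMM-scaled) of each gene in each of the 15 libraries, with the mean and SD of 3 libraries per group; scr, si-1 and si-2 are the siRNA groups and LV the lentiviral ones. LBH, HEY2, HAND2 and IRX2 of the ATRNL1 lentivirus stand above the control lentivirus in every library, and IRX4 stays low in both lentiviral groups.

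Genes of the surrounding programme were counted from lists chosen for their roles, to be read beside the 19.1% of all genes called higher and the 18% called lower with ATRNL1 overexpression. Of 12 ventricular muscle genes, 10 rose and 0 fell, with a median log2 fold change of 0.42 against 0.00 over all genes. TNNI3, the adult cardiac troponin I, rose by 1.27 on the log2 scale, MYL2, the ventricular myosin light chain, by 0.88 and CKM, muscle creatine kinase, by 0.80. Of 15 atrial genes tested, 1 rose and 8 fell (median -0.23). MYH6, the alpha myosin heavy chain, fell by 0.63, GJA5, the atrial connexin 40, fell by 0.51 and CACNA1D, a calcium channel of atrial and nodal cells, fell by 0.50. Of 14 core cardiac transcription factors, 10 rose and 3 fell. GATA5 rose by 0.79 and MEF2D by 0.60, and MYOCD, the SRF coactivator, fell by 0.51. Of 8 pacemaker and conduction genes, 2 rose and 3 fell, among them SHOX2 at -0.63.

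In the NOTCH pathway, which acts upstream of HEY genes, 1 of 8 ligands and receptors rose and 1 fell: JAG2, a ligand, was at 0.63 and the receptor NOTCH2 at -0.33. These 2 of 8 are a smaller share than the 37.1% of all genes called, and say nothing of the list as a whole. Of 14 transducers and modifiers, 7 rose and 1 fell. RBPJ, the DNA-binding protein of the pathway, rose by 0.63, and the coactivator MAML2 fell by 1.20. LFNG, a glycosyltransferase that tunes the receptors, rose by 1.76. It was at the edge of detection, with 0.016, 0.081 and 0.093 CPM in the controls and 0.18, 0.27 and 0.21 CPM with ATRNL1, so this size is uncertain. Of the other 4 NOTCH targets tested, 0 rose and 1 fell, HES1 at -0.43, again no more than the share of all genes. So HEY2 was higher while HES1 was lower and HEY1 did not pass the test. Of 13 BMP ligands and immediate targets, 6 rose and 1 fell. MSX2 rose by 0.78, MSX1 by 0.74 and ID4 by 0.69, and the ligand BMP5 fell by 0.62. Among the 3 E proteins that pair with HAND factors, TCF4 fell by 0.79 and TCF12 by 0.24, and TCF3 did not pass the test (0.14, adjusted p = 0.194). Among channel and connexin genes linked to Iroquois factors in the mouse heart, GJA1, which encodes connexin 43, rose by 0.85 and GJA5 fell by 0.51. The potassium channel genes KCND2, KCND3 and KCNIP2 did not pass the test.

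**Figure D3:**
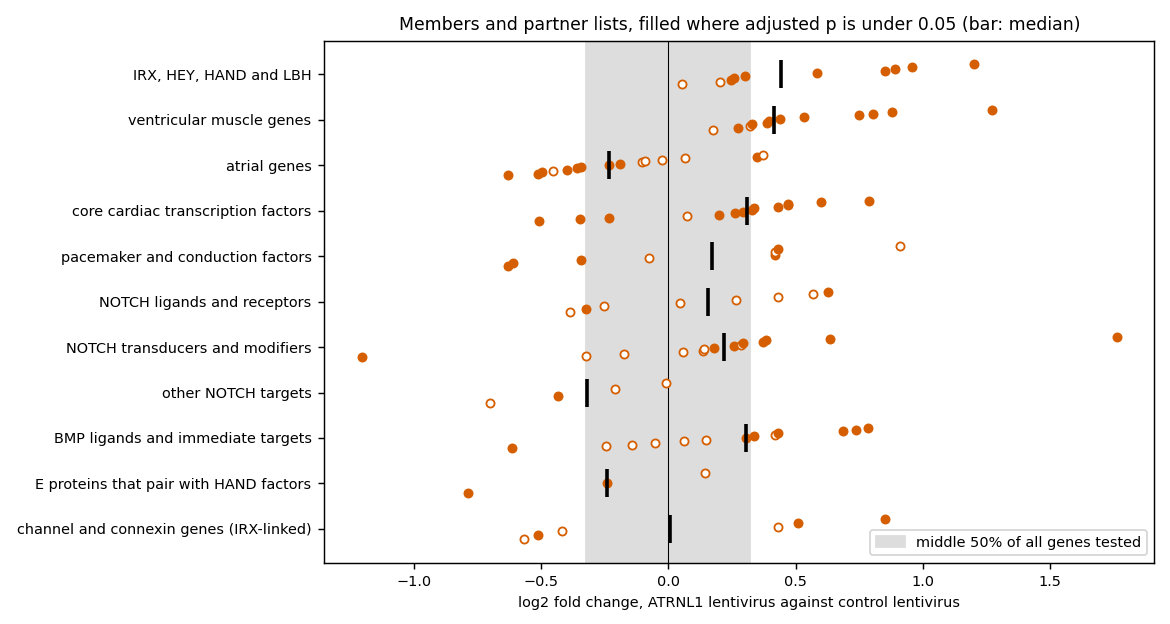
Log2 fold change with the ATRNL1 lentivirus for the 10 genes and for each list, 1 point per gene, filled where the adjusted p was under 0.05, with a bar at the median and grey for the middle 50% of all genes tested. The 10 genes and the ventricular muscle genes have medians of 0.44 and 0.42, and the atrial genes one of -0.23.

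Markers of other cells moved with the lentiviral groups. The summed level of 7 smooth muscle and pericyte markers ran from 950 to 971 CPM with the control lentivirus and from 775 to 849 CPM with ATRNL1. That of 7 neural markers ran from 37.1 to 39.9 CPM and from 17.6 to 20.5 CPM, and that of 7 fibroblast markers from 119 to 124 CPM and from 130 to 164 CPM. For 9 endothelial markers it ran from 65.5 to 76.6 CPM and from 56.4 to 59.5 CPM, with VWF and ERG below 0.1 CPM in every library. The cardiomyocyte sum overlapped between these groups, at 37220 to 41218 and 39723 to 43298 CPM. At 1 CPM or more in every library were 6 of 7 smooth muscle and pericyte markers and 5 of 7 fibroblast markers. Only 2 of 9 endothelial and 1 of 7 neural markers were, so those sums can rest on few genes. The part of these markers in the changes of the 10 genes was not tested.

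The knockdown comparisons asked what lowering ATRNL1 did to the same genes, and most did not pass the test. With siRNA-1, IRX3 rose, so 1 of the 10 genes was called where 9.61% of all genes were, 5.85% higher and 3.76% lower. With siRNA-2, IRX1 and IRX4 rose and LBH fell, 3 of 10 where 18.1% of all genes were called, 9.64% higher and 8.48% lower. Libraries did not overlap scramble for 6 of the 10 genes with each siRNA, against 28.8% and 36.7% of all genes. No gene was called in both. The median log2 fold change of the 10 genes was 0.23 with siRNA-1, against -0.01 over all genes, and 0.06 with siRNA-2, against 0.00.

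LBH was at 306, 308 and 310 CPM in the scramble group, 271, 256 and 247 CPM with siRNA-1 and 247, 268 and 266 CPM with siRNA-2. In CPM every siRNA library lay below every scramble library, whereas in TPM siRNA-2 library 3 (263.5) lay above scramble library 1 (261.9). The log2 fold change was -0.24 with siRNA-2 (SE 0.08, adjusted p = 0.0427) and -0.26 with siRNA-1 (SE 0.08, adjusted p = 0.0522), on opposite sides of the threshold with nearly the same size. The siRNA-2 call was lost in 11 of 16 alternatives, including each in which 1 scramble or siRNA-2 library was left out and the one without the in-between libraries (-0.26, adjusted p = 0.329), with values from -0.26 to -0.17 over all 16.

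IRX3 was at 29.9, 27.9 and 28.5 CPM in the scramble group, 37.9, 36.1 and 34.9 CPM with siRNA-1 and 26.2, 26.6 and 23.7 CPM with siRNA-2. The siRNA-1 libraries all lay above scramble and the siRNA-2 libraries all below it. The siRNA-1 change was 0.34 (SE 0.10, adjusted p = 0.0228), and the siRNA-2 difference, at -0.17 (SE 0.10, adjusted p = 0.242), did not pass. IRX5 had the same arrangement, at 7.99, 7.70 and 7.95 CPM in scramble, 8.94, 9.67 and 9.36 CPM with siRNA-1 and 6.84, 6.82 and 6.93 CPM with siRNA-2. Neither IRX5 difference from scramble passed (0.24, adjusted p = 0.151, and -0.20, adjusted p = 0.190). Compared directly, siRNA-1 exceeded siRNA-2 by 0.51 for IRX3 (SE 0.10, adjusted p = 7.13e-04) and by 0.44 for IRX5 (SE 0.10, adjusted p = 0.00504). These were the 2 genes of the 10 called between the siRNAs, where 10.1% of all genes were called, 5.6% higher with siRNA-1 and 4.53% lower, and where the libraries did not overlap for 33.9%. Both calls were lost without the in-between libraries (adjusted p = 0.0573 for IRX3 and 0.232 for IRX5), and the siRNA-1 call of IRX3 was lost in 8 of 16 alternatives, among them those without scramble library 2, scramble library 3, siRNA-1 library 1 and siRNA-1 library 2, with values of 0.32, 0.33, 0.30 and 0.35, and the one without the in-between libraries (0.33, adjusted p = 0.335). ATRNL1 itself was lower with siRNA-2 than with siRNA-1.

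IRX1 was at 0.869, 0.694 and 0.695 CPM in scramble, 1.21, 1.11 and 1.20 CPM with siRNA-1 and 1.11, 1.24 and 1.18 CPM with siRNA-2. Both siRNA groups lay above scramble in all libraries and had the same size of difference, 0.66 in each (SE 0.22, adjusted p = 0.0587 for siRNA-1, and SE 0.21, adjusted p = 0.0315 for siRNA-2). The siRNA-2 call was lost in 10 of 16 alternatives, among them leaving out any 1 siRNA-2 library (0.62 to 0.70), scramble library 2 (0.62), scramble library 3 (0.59) or the in-between libraries (0.56, adjusted p = 0.391), and the siRNA-1 difference passed without scramble library 1 (0.77, adjusted p = 0.0374). IRX4 was at 89.5, 74.1 and 80.1 CPM in scramble, 87.7, 86.2 and 85.5 CPM with siRNA-1 and 94.4, 102 and 95.4 CPM with siRNA-2. The siRNA-2 libraries all lay above scramble (0.26, SE 0.07, adjusted p = 0.0104), and the siRNA-1 libraries fell within its range (0.09, SE 0.07, adjusted p = 0.523). That call of IRX4 was lost in 6 of 16 alternatives: without siRNA-2 library 2 (0.23), scramble library 2 (0.20), scramble library 3 (0.24) or the in-between libraries (0.22, adjusted p = 0.343), and when scramble library 1 (0.11) or 3 (0.28) alone served as control. IRX2 was at 7.84, 10.4 and 9.48 CPM in scramble, 11.8, 11.6 and 10.7 CPM with siRNA-1 and 8.47, 9.89 and 9.91 CPM with siRNA-2. Its siRNA-1 libraries were above scramble without passing the test (0.29, SE 0.11, adjusted p = 0.0938, and 0.39, adjusted p = 0.0390, without scramble library 2), and its siRNA-2 libraries overlapped scramble (0.02, adjusted p = 0.929).

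HAND2 was at 187, 163 and 172 CPM in scramble, 216, 205 and 191 CPM with siRNA-1 and 192, 202 and 191 CPM with siRNA-2. All siRNA libraries exceeded scramble, but neither difference was called (0.23, SE 0.07, adjusted p = 0.0501, and 0.16, SE 0.07, adjusted p = 0.137). The siRNA-1 difference passed in 6 of 16 alternatives, among them those without scramble library 1 (0.29) or siRNA-1 library 3 (0.28). HAND2-AS1 was called higher with both siRNAs, at 0.30 (adjusted p = 0.00228) and 0.27 (adjusted p = 0.00304). HAND1 was at 78.3, 69.4 and 74.0 CPM in scramble, 72.6, 73.2 and 71.8 CPM with siRNA-1 and 74.7, 78.3 and 74.4 CPM with siRNA-2. Its groups overlapped, and the 95% intervals of the log2 difference ran from -0.19 to 0.13 and from -0.12 to 0.20.

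HEY2 did not pass with either siRNA. It was at 98.2, 84.7 and 89.7 CPM in scramble, 91.7, 94.7 and 97.6 CPM with siRNA-1 and 96.9, 97.9 and 96.4 CPM with siRNA-2, with intervals of -0.13 to 0.25 and -0.09 to 0.28. HEY1 was at 0.847, 1.52 and 0.989 CPM in scramble, 1.39, 1.53 and 1.49 CPM with siRNA-1 and 1.07, 1.25 and 1.22 CPM with siRNA-2, all within or close to the wide range of scramble (0.39, adjusted p = 0.306, and 0.07, adjusted p = 0.867).

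**Figure D4:**
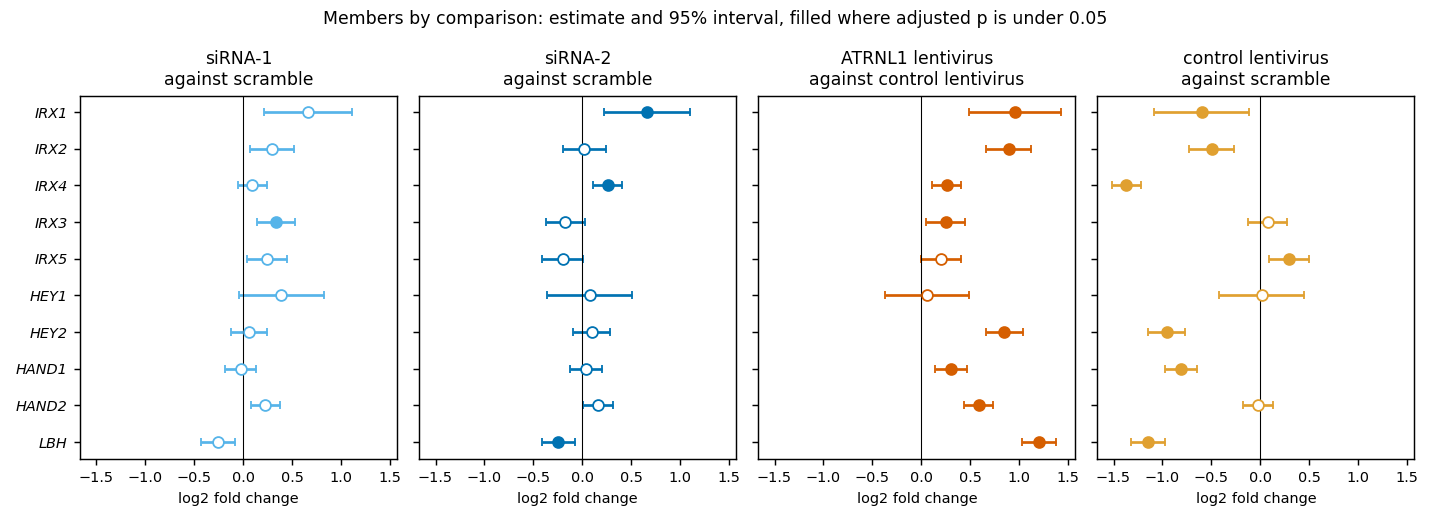
Log2 fold change of each gene in 4 comparisons with its 95% interval, filled where the adjusted p was under 0.05. The siRNA values lie between -0.26 and 0.66, the ATRNL1 lentivirus values are all at or above 0.06, and the control lentivirus against scramble spans -1.37 to 0.29.

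In the partner lists, each siRNA moved some members, where 5.85% of all genes were called higher and 3.76% lower with siRNA-1, and 9.64% and 8.48% with siRNA-2. Of 12 ventricular muscle genes, 4 rose with siRNA-1 and 5 with siRNA-2, and 0 fell with either (median log2 fold changes 0.12 and 0.20). MYH7, the beta myosin heavy chain, rose by 0.49 and 0.83, and LMOD2, a thin-filament protein, by 0.57 and 0.52. Of 15 atrial genes, 3 rose and 1 fell with each siRNA, NPPA, the atrial natriuretic peptide, being at -0.62 and -0.60. The 1 atrial gene that fell is near the share of all genes called lower, while the 3 that rose are a larger share than that of all genes called higher. The list's medians were 0.15 and -0.05. Of 8 NOTCH ligands and receptors, 0 rose and 1 fell with siRNA-1, and 1 rose and 1 fell with siRNA-2. Of 14 NOTCH transducers and modifiers, 1 rose and 1 fell with siRNA-1, and 3 rose and 0 fell with siRNA-2. These counts are too small to describe the lists as a whole. The receptor NOTCH1 fell with both siRNAs, at -0.50 and -0.33, and RBPJ rose with both, at 0.54 and 0.25. Of 13 BMP genes, 4 rose and 0 fell with each siRNA, ID3 at 0.52 and 0.75, with medians of 0.30 and 0.25. HES1 fell with siRNA-1 (-0.45, adjusted p = 0.0196) and was at -0.26 (adjusted p = 0.149) with siRNA-2. GJA1 fell by 1.18 with siRNA-2 and was at 0.00 with siRNA-1, a difference between siRNAs of 1.18 (adjusted p = 4.54e-10). Neural marker sums were 16.1 to 16.5 CPM in scramble, 25.001 to 33.0 with siRNA-1 and 25.3 to 26.3 with siRNA-2, and smooth muscle sums 327 to 496, 387 to 548 and 518 to 588 CPM. Their part in these changes was not tested.

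Because loss and gain of ATRNL1 used separate controls, the difference of effects was tested as overexpression minus the mean of both knockdowns. LBH differed by 1.45 (SE 0.11, adjusted p = 1.75e-10), HEY2 by 0.77 (SE 0.12, adjusted p = 1.56e-05), IRX2 by 0.73 (SE 0.14, adjusted p = 2.41e-04), HAND2 by 0.39 (SE 0.10, adjusted p = 0.00246) and HAND1 by 0.29 (SE 0.10, adjusted p = 0.0309). So 5 of the 10 genes were called higher with overexpression than with knockdown, where 32% of all genes were called, 16.5% higher and 15.5% lower. Called or not, 9 of the 10 values were positive. LBH had values of opposite sign, and in CPM every siRNA library was below scramble and every ATRNL1 lentivirus library above its control. IRX1, with positive values in both arms, had no called difference (0.29, adjusted p = 0.505), and neither had IRX4 (0.08, adjusted p = 0.569). The HAND1 call was lost in 9 of 24 alternatives, among them those without scramble library 1 or 3, control lentivirus library 1 or 2 and ATRNL1 lentivirus library 2 or 3, with values of 0.23 to 0.30, and the one without the in-between libraries (0.24, adjusted p = 0.355). The HAND2 call was also lost without the in-between libraries (0.45, adjusted p = 0.0577) and when scramble library 2 alone served as control (0.31, adjusted p = 0.0614).

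The control groups differed in more genes than any treatment did from its own control. In control lentivirus against scramble, IRX4, LBH, HEY2, HAND1, IRX1 and IRX2 were lower and IRX5 was higher, 7 of 10 where 63.6% of all genes were called, 30.3% higher and 33.2% lower. IRX4 had the largest of the 10 values, 81.2 ± 7.77 CPM in scramble and 31.5 ± 0.79 CPM with the control lentivirus (-1.37, SE 0.07, adjusted p = 1.67e-14). LBH fell by 1.15 (adjusted p = 7.10e-12), HEY2 by 0.96 (adjusted p = 1.25e-09), HAND1 by 0.81 (adjusted p = 1.40e-09), IRX1 by 0.60 (adjusted p = 0.0286) and IRX2 by 0.50 (adjusted p = 3.24e-04). Control lentivirus libraries did not overlap scramble in any of these 6 genes or in IRX5, against 68.5% of all genes. IRX5 was higher by 0.29 (adjusted p = 0.0134), a call lost with scaling by library size alone, which moved the median of all genes by -0.20 and the share of genes called higher from 30.3% to 23.5%. IRX3 (0.07, adjusted p = 0.512), HEY1 (0.01, adjusted p = 0.956) and HAND2 (-0.02, adjusted p = 0.810) were not called, although with library size alone HAND2 was called lower (-0.22, adjusted p = 5.51e-04). HAND2-AS1 nevertheless rose by 0.88 (adjusted p = 4.73e-12), and CRNDE, a noncoding gene 1673 bases from IRX5 on the opposite strand, rose from 11.6 ± 2.20 to 43.4 ± 0.59 CPM. Delivery method, selection and handling differed together between these groups and cannot be told apart. Marker sums of other cells differed too between scramble and the control lentivirus. They were 327 to 496 against 950 to 971 CPM for smooth muscle and pericyte markers and 161 to 227 against 119 to 124 CPM for fibroblast markers. Neural markers were at 16.1 to 16.5 against 37.1 to 39.9 CPM, and 7 epicardial markers at 5.17 to 7.38 against 10.0 to 10.7 CPM. Only 1 of 7 neural and 2 of 7 epicardial markers were at 1 CPM or more in every library, so those sums can rest on few genes. The part of these markers in the group differences was not tested. The IRX1 call was lost without scramble library 1 (-0.52) or control lentivirus library 3 (-0.44), and the IRX5 call without scramble library 2 (0.25), scramble library 3 (0.27) or control lentivirus library 1 (0.23). Both were lost without the in-between libraries (-0.75, adjusted p = 0.0801, and 0.32, adjusted p = 0.0852). This left 5 of the 10 genes called, where 51.9% of all genes were.

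The order of the 5 groups differed between genes. Of 40 pairs of groups next to each other in the order of their means, 11 differed by the test and 29 did not. The pairs were picked by the same means that were tested, so their gaps are small by design and these counts only describe the order. For the pairs that only this order uses, the share of all genes called was 57.1% between the ATRNL1 lentivirus and scramble, 52.6% and 56.1% between it and siRNA-1 and siRNA-2, and 60.7% between the control lentivirus and siRNA-1. LBH with the ATRNL1 lentivirus, at 319 ± 21.6 CPM, stood next to scramble at 308 ± 2.05 CPM (0.05, adjusted p = 0.626), and HEY2, at 84.4 ± 16.6 CPM, stood next below scramble at 90.9 ± 6.84 CPM (0.11, adjusted p = 0.334). IRX4 and HAND1 stayed below the siRNA groups with the ATRNL1 lentivirus: IRX4 was lower than in scramble by a log2 difference of 1.11 (adjusted p = 2.21e-12) and HAND1 lower than with siRNA-1 by 0.49 (adjusted p = 9.45e-06). HAND2 was highest with the ATRNL1 lentivirus, above siRNA-1 by 0.34 (adjusted p = 3.47e-04), and its other neighbours in order were not called apart. For IRX5 and HEY1 no neighbouring pair differed by the test. The TPM ratio of IRX4 to IRX3 was 2.91 ± 0.18 in scramble, 2.46 ± 0.07 and 3.95 ± 0.22 with siRNA-1 and siRNA-2, and 1.08 ± 0.13 and 1.10 ± 0.12 with the control and ATRNL1 lentivirus. The ratio of IRX3 to IRX5 held a narrower span, from 3.07 ± 0.17 to 3.81 ± 0.29.

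Across the 15 libraries, which share the 5 groups, the log2 CPM of IRX3 and IRX5 had a Pearson r of 0.85, and of IRX4 and HAND1 one of 0.97. Among 14898 genes at a mean of 1 CPM or more, the gene most like LBH was GGA2 (r = 0.990), the one most like HEY2 was NPY1R (r = 0.987), and those most like IRX4, HAND1 and IRX2 were ULK1 (r = 0.995), RASD1 (r = 0.988) and ZDHHC9 (r = 0.969). The closest to IRX5 was EEF1A1 (r = 0.968), to HAND2 SH3PXD2A (r = 0.967), to IRX3 RPL5 (r = 0.940) and to HEY1 BCL2 (r = 0.851). These values describe likeness over libraries whose groups differ in delivery method.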

How the data were processed

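The authors deposited whole-number gene counts, unnormalized, for 15 libraries. The submitters' processing notes name GRCh38, STAR 2.7.9a and DESeq2 1.30.1 without their roles, and neither counter nor strand setting is named there. Ribosomal RNA was depleted, per the labels' protocols, whereas the molecule field names polyA RNA. Columns named the group but not the sample, so library numbers are the running numbers of the columns, which no label ties across groups. No label states that libraries of a group were separate cultures. The p-values therefore reflect the spread among these samples alone, possibly technical. The 649 rows without a gene identifier (at most 0.00437% of a library's counts) were left out.

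Genes were filtered with filterByExpr by group, scaled with TMM and fitted in edgeR 4.0.16 (R 4.3.3) as 1 quasi-likelihood model of 5 group means. Adjusted p-values come from this edgeR quasi-likelihood F-test after Benjamini-Hochberg adjustment over all 24659 genes, with calls under 0.05. The test was also run on simulated counts with the same spread in all groups and few changed genes. That run therefore does not cover the wider spread of the ATRNL1 lentivirus group or the large shares of genes called here. The biological coefficient of variation was 8.24%. CPM used TMM-scaled library sizes, and TPM used summed exon lengths of GENCODE without TMM scaling. Statements on overlap of libraries refer to CPM unless TPM is named. Overlap can differ between these units, as it did with siRNA-2 against scramble for LBH, IRX3, IRX5, HEY2 and HAND1. Differences between replicates exceeded sampling noise in every pair. Alternatives used DESeq2 1.42.0, limma 3.58.1, other scaling, no filter, fewer libraries and single scramble controls. The members and lists were chosen with earlier results of these data known. From each list, the called genes of largest size were eligible for naming, up to 3 in each direction; likeness used Pearson's r of log2 CPM. Values of some genes in the lists are not reported here.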

Additional observations from a re-analysis of the deposited data

Results flagged for a closer look

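Among the 10 genes, 2 responded differently to the siRNAs by a direct test: siRNA-1 exceeded siRNA-2 by 0.51 on the log2 scale for IRX3 and by 0.44 for IRX5. The overexpression effect exceeded the mean knockdown effect by 1.45 for LBH, 0.77 for HEY2, 0.73 for IRX2, 0.39 for HAND2 and 0.29 for HAND1, each tested as an interaction in edgeR. Groups of 3 are too small for a test of single outlying libraries.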

How the results depend on the processing

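Of 60 results (10 genes in 6 comparisons), 26 were called, and 12 of these kept direction and call in every alternative run: IRX1, IRX2, HEY2, HAND2 and LBH with overexpression, IRX4, HEY2, HAND1 and LBH in control lentivirus against scramble, and IRX2, HEY2 and LBH in overexpression minus knockdown. The other 14 lost the call somewhere and 0 reversed. Of 34 results not called, 9 gained a call somewhere. Over 980 alternative values, 840 kept direction and side of the threshold, 71 lost a call, 22 gained one and 47 reversed, all of results not called. Causes were not tested.

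The counts of the 10 genes called are given here with the share of all genes tested that was called in brackets. With siRNA-1, 1 (9.61%) became 3 with library size only (11%) and 4 with limma-voom (9.55%). It became 4 with DESeq2's Wald test (14.5% of the genes given an adjusted p). With no filter it was 2 (5.65%), with only the groups compared 3 (10.3%), and when 1 library was left out 0 to 3 (5.61% to 11.7%). With siRNA-2, 3 (18.1%) became 0 to 2 when 1 library was left out (12.3% to 18%). Between the siRNAs, 2 (10.1%) became 4 with only the groups compared (21.9%) and stayed 2 when 1 library was left out (5.67% to 6.67%). When 1 library was left out, it was 7 to 9 for overexpression (30.5% to 36.8%) and 6 to 7 for the control groups (57.1% to 60.5%). For overexpression minus knockdown it was then 4 to 5 (26.9% to 33.5%). Without the in-between library of each group, chosen after seeing the data, the counts were 0 with siRNA-1 (1.77%), 0 with siRNA-2 (5.63%) and 0 between the siRNAs (1.87%). They were 5 for overexpression (21.1%), 5 for the control groups (51.9%) and 3 for overexpression minus knockdown (16.5%).

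The reversed values, as log2 fold changes, were these. With library size only, IRX1 was -0.073 and HAND2 -0.011 between the siRNAs and IRX3 was -0.13 and HEY1 -0.19 between the controls. With no filter, IRX1 was -0.0062 between the siRNAs. Without the in-between libraries, HEY1 was -0.071 with siRNA-2, HEY1 was -0.19 between the controls, HEY1 was 0.17 in overexpression minus knockdown and LBH was 0.015 between the siRNAs. With only the groups compared, HEY1 was -0.0010 between the controls. With DESeq2 size factors in edgeR, HAND2 was 0.0036 between the controls and LBH was 0.0051 between the siRNAs. With DESeq2's Wald test, HAND2 was 0.0037 between the controls and LBH was 0.0051 between the siRNAs. With scramble library 1 as the sole control, IRX3 was -0.013 between the controls, IRX4 was -0.050 and HEY2 -0.054 with siRNA-1 and HEY2 was -0.028 and HAND1 -0.058 with siRNA-2. With scramble library 2, IRX2 was -0.14 and HEY1 -0.37 with siRNA-2, IRX4 was -0.041 and HEY1 0.28 in overexpression minus knockdown, HEY1 was -0.044 and HAND1 0.074 with siRNA-1 and HEY1 was -0.45 and HAND2 0.055 between the controls. With scramble library 3, IRX2 was -0.0062 with siRNA-2. Leaving out 1 library at a time, IRX1 ran from -0.041 to 0.043 between the siRNAs, IRX2 ran from -0.071 to 0.11 with siRNA-2, HEY1 ran from -0.055 to 0.34 with siRNA-2, HEY1 ran from -0.13 to 0.17 with overexpression, HEY1 ran from -0.13 to 0.26 between the controls, HAND1 ran from -0.063 to 0.028 with siRNA-1, HAND1 ran from -0.0077 to 0.084 with siRNA-2, HAND2 ran from -0.090 to 0.015 between the controls and LBH ran from -0.052 to 0.028 between the siRNAs.

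No paired analysis was possible because the sample titles give the groups no shared replicate numbers, and nothing in the labels ties the running numbers of the count table's columns across groups. Depth limited IRX1 (13 to 82 counts per library) and HEY1 (39 to 124).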

Other observations

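The relatives that are not among the 10 genes, IRX6 and HEYL, passed the filter but were called in none of the 6 comparisons. Their group means were only 0.32 to 0.59 CPM for IRX6 and 0.075 to 0.26 CPM for HEYL, which limits what could be seen of them. The noncoding neighbour CRNDE, near IRX5, fell from 43.4 ± 0.59 to 25.9 ± 2.22 CPM with ATRNL1 overexpression (-0.75 on the log2 scale, SE 0.10, edgeR quasi-likelihood F-test, Benjamini-Hochberg adjusted p = 1.25e-06), whereas IRX5 was not called there. AC025183.1, antisense to IRX4 with no shared exonic bases, fell by 0.51 in the control lentivirus against scramble (adjusted p = 3.48e-05), in the same direction as IRX4. AC016595.1, which shares 383 exonic bases with IRX1, held 0 counts in every library.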
